A study of Mus musculus with 9 samples.

Results

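The genes described here are the long intergenic non-coding RNA (lincRNA) genes with measurable RNA in RAW-Blue cells, a reporter line derived from mouse macrophages. They were chosen by the type lincRNA in the deposited count table and by their level: the estimated counts of a gene had to sum to at least 60 over the 3 LPS and the 3 None libraries. The sum that chose them is not treated as a result. Of 4217 lincRNA genes among 50600 genes in all, 138 met this rule, 510 had fewer counts and 3569 had 0 in all 6 libraries. LPS cells had received lipopolysaccharide, a glycolipid of Gram-negative bacteria that macrophages sense through Tlr4, at 1 µg/ml for 24 hours. None cells had received no LPS and were the same line. Both groups were given 24 hours in regular medium, per the labels. The labels also name 3 samples given nanovesicles of the plant Peucedanum japonicum before LPS (LPS-PjELNs), which were not analysed here. Separate cultures are not named for the replicates in the labels, and a p-value here therefore reflects the spread among these samples alone.

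A lincRNA is a spliced or unspliced transcript that lies between protein-coding genes and holds no long reading frame. Some act in the nucleus as scaffolds of nuclear bodies, some regulate genes near their own locus, and others are mainly precursors from which microRNAs or small nucleolar RNAs (snoRNAs) are cut. In macrophages, lincRNAs near inflammatory genes are known to respond to Toll-like receptor ligands, with the precursor of miR-155 and lincRNA-Cox2 (Ptgs2os2) as well-studied cases.

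The libraries held 14650843 to 17665200 estimated counts, and a value here is either counts, CPM (counts per 1000000 counts, scaled between libraries by TMM) or the deposited TPM (per transcript length). All 8 macrophage markers examined, among them Cd68, Csf1r and Lyz2, were detected, with a summed level of 17180 to 18790 TPM in LPS libraries and 10970 to 12700 TPM in None libraries. Of the markers of other cell types, Cd3e and Epcam were at 0 in all 6 libraries, and Col1a1 and Pecam1 did not exceed 0.03 and 0.2 TPM in any library. The response genes Tnf, Il1b, Nos2 and Ptgs2 summed to 2900 to 5525 TPM in LPS libraries and 60.5 to 85.2 TPM in None libraries, with no overlap. LPS replicate 1 differed more from the other LPS libraries than those did from each other (chi-square over degrees of freedom of 15.4 and 17.1, against 9.76). The same held for None replicate 1 among the None libraries (6.91 and 8.93, against 3.3).

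Most lincRNA genes that changed were lower after LPS. In bulk RNA, fewer cells with a transcript and less of it per cell cannot be told apart. Of the 138 genes, 136 passed the filter on low counts and were tested with edgeR's quasi-likelihood test, adjusted over all 11916 genes tested, with a call at an adjusted p under 0.05. LPS libraries were higher for 30 of the 136 and lower for 64, and 42 were not called. Over all genes tested, 34% were called higher and 35.1% lower, so that the share of lincRNA genes called in either direction, 69.1%, equalled the 69.1% of all genes, while 22.1% were higher and 47.1% lower. The median log2 fold change was -0.40 for the 136 lincRNA genes, -0.03 for all genes and -0.02 for the 10809 protein-coding genes tested. Decreases of at least 2-fold were called for 45 lincRNA genes, 33.1% of those tested, against 11.8% of all genes. Increases of at least 2-fold were called for 16, 11.8% of those tested, against 11.1% of all genes. The rule used unscaled counts, and 1 count was about 0.05 CPM in None and 0.07 CPM in LPS libraries. A gene high in None thus met it at a lower CPM than a gene high in LPS. Some genes met it almost wholly through 1 group, such as Gm5086 through None and Mir155hg through LPS. The set of all genes was not chosen by this rule, and its effect on the shares was not tested.

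**Figure D1:**
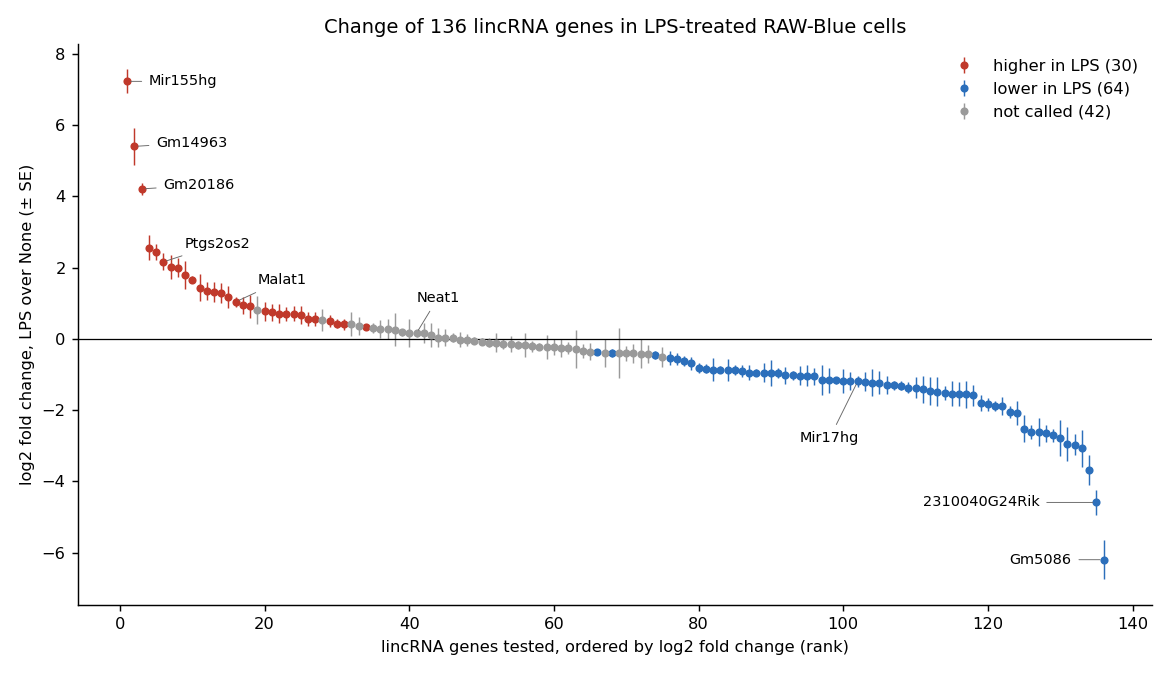
Each point is 1 of the 136 lincRNA genes tested, ordered by rank on the x axis, with its log2 fold change of LPS over None and its standard error on the y axis, coloured by call. The standard error is the size of the log2 fold change divided by the square root of edgeR's F statistic. It can understate counting error where a group holds few counts. The 30 genes called higher in LPS reach 7.23 for Mir155hg, and the 64 called lower reach -6.20 for Gm5086.

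The split held in the same direction without LPS replicate 1, at 27 higher and 63 lower. It depended on how libraries were scaled: with library totals alone 17 were higher and 78 lower, and with limma on log2(TPM + 0.1) 20 and 75. These settings shifted the median of all genes by -0.26 and -0.22 on the log2 scale. The calls of all 11916 genes moved the same way, from 4052 higher and 4180 lower in the main fit. They became 2679 and 6076 with library totals alone, and 2799 and 5132 with limma on TPM. In 93 of the 136 genes the 3 LPS and 3 None libraries did not overlap in CPM, with LPS above in 28 and below in 65, against 73.6% of all genes tested without overlap. Calls that were the same under all 13 alternative fits numbered 15 higher and 54 lower. The fits with library totals and with TPM shift all genes toward lower values, so a call of lower is kept more easily. The same count over all genes is not given here, and the 15 and 54 do not compare the firmness of increases and decreases.

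Level and direction went together among genes in general, and lincRNA genes are mostly low. The median lincRNA gene had 2.24 TPM in LPS and 3.30 TPM in None, against 14.9 TPM in LPS and 16.6 TPM in None for the median protein-coding gene tested. Between 1 and 10 CPM, 21 of 84 lincRNA genes were higher and 40 lower (25% and 47.6%), against 25.0% and 40.3% of the 2508 genes of that level. Over 10 CPM, 5 of 27 lincRNA genes were higher and 13 lower (18.5% and 48.1%), against 37.5% and 33.4% of 8785 genes. Under 1 CPM, 4 of 25 were higher and 11 lower (16% and 44%), against 20.6% and 37.7% of 623 genes. The median log2 fold change of the lincRNA genes was -0.21 over 10 CPM, -0.42 from 1 to 10 CPM and -0.40 under 1 CPM, against 0.02, -0.25 and -0.42 for all genes of these levels. These differences were not tested, and the classes over 10 CPM and under 1 CPM hold few lincRNA genes.

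**Figure D2:**
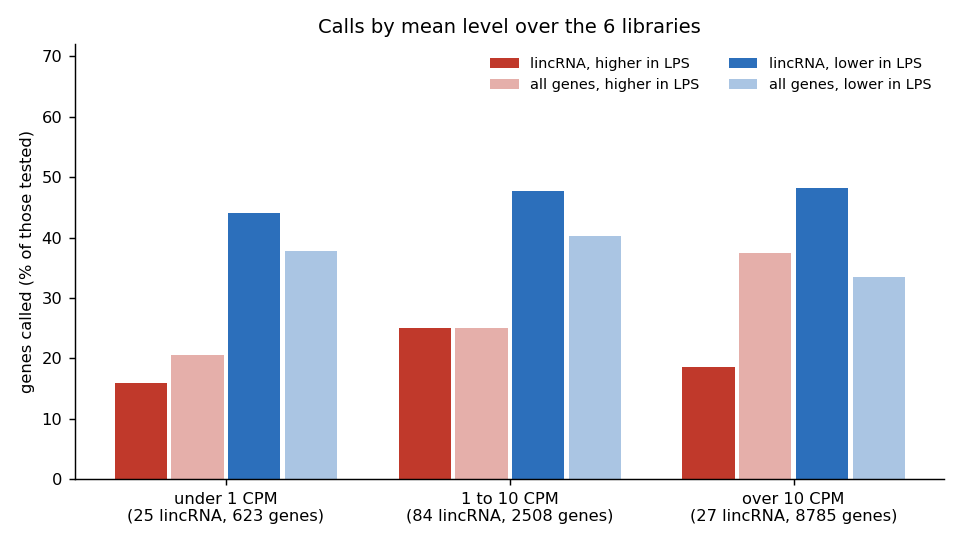
Bars give the percentage of tested genes called higher (red) or lower (blue) in LPS, for lincRNA genes (dark) and all genes (pale), in 3 classes of mean CPM over the 6 libraries. Over 10 CPM the lower share is 48.1% of 27 lincRNA genes and 33.4% of 8785 genes.

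Few genes carried most of the lincRNA signal. The 138 genes summed to 2800 ± 187 TPM in LPS and 3289 ± 42.3 TPM in None (SD, n = 3 each), and took 0.201 ± 0.004% of counts in LPS and 0.234 ± 0.013% in None. The 5 most abundant genes held 69.4% of the summed TPM in LPS and 65.0% in None. Gm10076, at 1306 ± 232 TPM in LPS and 1645 ± 49.1 TPM in None, and Rps18-ps4, at 111 ± 14.6 TPM in LPS and 127 ± 23.2 TPM in None, stood near the top of both groups. RefSeq lists Gm10076 as a pseudogene and the symbol Rps18-ps4 marks it as related to the ribosomal protein gene Rps18, so their values depend on how reads were divided among near-identical copies. Neither was called (adjusted p of 0.517 and 0.811 in edgeR), though Gm10076 was called lower with library totals alone and with limma on TPM, at adjusted p of 0.0157 to 0.0313.

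Neat1, the scaffold of paraspeckles, ranked 2 by TPM in both groups, at 250 ± 34.8 TPM in LPS and 207 ± 22.6 TPM in None. The same gene read 681, 560 and 557 CPM in LPS and 579, 538 and 490 CPM in None, groups that overlapped, and was not called (log2 fold change 0.16 ± 0.10, SE; edgeR adjusted p = 0.153). Its difference took the opposite sign, at -0.10, with scaling by library totals alone. Malat1, which lies close by on chromosome 19 and is a component of nuclear speckles, had 460, 375 and 441 CPM in LPS libraries, against 244, 219 and 156 CPM in None libraries. Every LPS library exceeded every None library, and Malat1 rose 2.06-fold (log2 fold change 1.04 ± 0.14, SE; edgeR adjusted p = 2.54e-05).

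**Figure D3:**
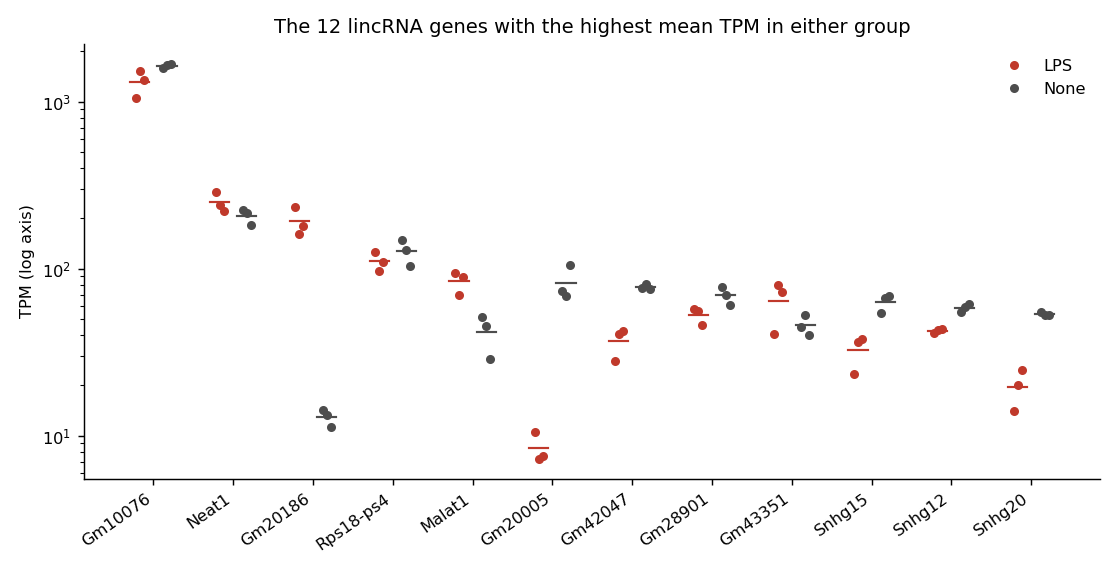
The 12 lincRNA genes with the highest mean TPM in either group are on the x axis, with TPM on a log axis; points are libraries and lines are means, LPS in red to the left of None in grey. Gm20186 (192 TPM in LPS, 12.9 TPM in None) and Gm20005 (8.44 TPM in LPS, 82.2 TPM in None) change places in the order.

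The order of levels was rearranged by a few genes. Gm20186 ranked 3 by TPM in LPS and 29 in None, and Gm20005 ranked 27 in LPS and 4 in None. Gm42047 had 37.0 ± 7.77 TPM in LPS and 77.8 ± 2.96 TPM in None, and Gm28901 had 53.1 ± 6.26 TPM in LPS and 69.4 ± 8.24 TPM in None. In CPM, Gm42047 fell by 0.83 on the log2 scale (SE 0.13; edgeR adjusted p = 7.08e-05), while Gm28901 was not called (edgeR adjusted p = 0.332) except as lower with library totals alone and with limma on TPM (adjusted p of 0.0135 and 0.0159). Gm43351 had 64.3 ± 20.8 TPM in LPS and 45.9 ± 6.39 TPM in None, with a call (log2 fold change 0.75; edgeR adjusted p = 0.0159) that was lost under the same settings (adjusted p of 0.0962 and 0.122) and without LPS replicate 2 or 3 or None replicate 3 (adjusted p of 0.0679, 0.0732 and 0.0614).

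The largest increase was that of Mir155hg (chr16:84703167-84715245, GRCm38, plus strand), also known as Bic, the transcript from which miR-155 is cut. miR-155 is a microRNA of activated macrophages and lymphocytes that represses inhibitors of inflammatory signalling. Its 2 mature arms are shown because this host gene changed most; they are RefSeq sequences (GRCm38.p6), written 5′ to 3′ with the seed, bases 2 to 8, in capitals.
mmu-miR-155-5p: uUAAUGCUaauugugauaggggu
mmu-miR-155-3p: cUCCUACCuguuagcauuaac
The host transcript had 300, 201 and 205 counts in LPS libraries (21.3, 14.6 and 14.8 CPM), against 1, 4 and 1 counts in None libraries (0.054, 0.207 and 0.052 CPM). The None libraries thus held at most 4 counts and the LPS libraries at least 201, a 150-fold increase (log2 fold change 7.23 ± 0.33, SE; edgeR adjusted p = 1.85e-09). With 6 counts in the None group, 4 of them in replicate 2, the ratio of scaled counts, LPS over None, was 161, with an exact 95% interval of 73.7 to 440.5 that covers counting error only. The SE given above comes from edgeR's F statistic and understates this counting error. Without None replicate 2 the log2 fold change was 8.12, or 278-fold. The mature microRNA itself was not measured by these counts.

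Ptgs2os2, or lincRNA-Cox2 (chr1:150159043-150164948, minus strand), lies 50816 bases from Ptgs2, which encodes the inducible cyclooxygenase, and is known in mouse macrophages as a regulator of immune genes. It had 9.17, 7.55 and 4.98 CPM in LPS libraries, against 1.63, 1.65 and 1.55 CPM in None libraries. No LPS library overlapped the None libraries, and Ptgs2os2 rose 4.47-fold (log2 fold change 2.16 ± 0.24, SE; edgeR adjusted p = 4.59e-06). Morrbid (chr2:128178341-128429427, minus strand), known in mouse for restraining the nearby death gene Bcl2l11 in short-lived myeloid cells, had 2.91, 2.47 and 3.10 CPM in LPS libraries, against 0.868, 0.569 and 0.672 CPM in None libraries. Its libraries did not overlap, and it rose 4.0-fold (log2 fold change 2.0 ± 0.26, SE; edgeR adjusted p = 2.08e-05). Of the other entries of the immune list, AW112010 and Mirt2 were listed at 0 in all 6 libraries, and Ptgs2os, Mirt1, Dnmt3aos and Ttc39aos1 carry other types in the table and are outside the rule.

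Several genes named only by number rose by as much. Gm20186 (chr6:18845912-18848207, minus strand) had 105, 70.0 and 84.0 CPM in LPS libraries, against 5.26, 4.55 and 4.19 CPM in None libraries. It was the most abundant of the strongly rising genes, at 18.5-fold (log2 fold change 4.21 ± 0.16, SE; edgeR adjusted p = 3.13e-10), with no overlap between groups. Gm14963 (chr19:6268795-6276605, minus strand) had 26, 20 and 29 counts in LPS libraries, against 0, 1 and 1 counts in None libraries. With 2 counts in the None group, the ratio of scaled counts, LPS over None, was 51.4, with an exact 95% interval of 13.7 to 432 (edgeR adjusted p = 1.65e-06). A230028O05Rik (chr16:25059639-25069058, plus strand) had 5.33, 5.95 and 4.54 CPM in LPS libraries, against 1.08, 0.827 and 0.982 CPM in None libraries, and rose 5.44-fold without overlap (edgeR adjusted p = 7.34e-07).

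Further genes rose by 2.27-fold to 5.92-fold. Gm40773 rose 5.92-fold on low counts (1.80 ± 0.37 CPM in LPS, 0.296 ± 0.126 CPM in None). Gm12606, beside the tumour suppressor locus Cdkn2a, rose 3.17-fold, with 27.1 ± 1.27 CPM in LPS and 8.55 ± 0.84 CPM in None. The genes 1110002J07Rik, Gm40723, 9330175E14Rik and 2210417A02Rik rose 2.27-fold to 2.54-fold (edgeR adjusted p of 0.000312 to 0.00414). None of the 12 largest increases among genes with a mean of at least 1 CPM lost its call under any alternative fit, though in 2210417A02Rik the lowest LPS library, at 1.56 CPM, was close to the highest None library, at 1.36 CPM.

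**Figure D4:**
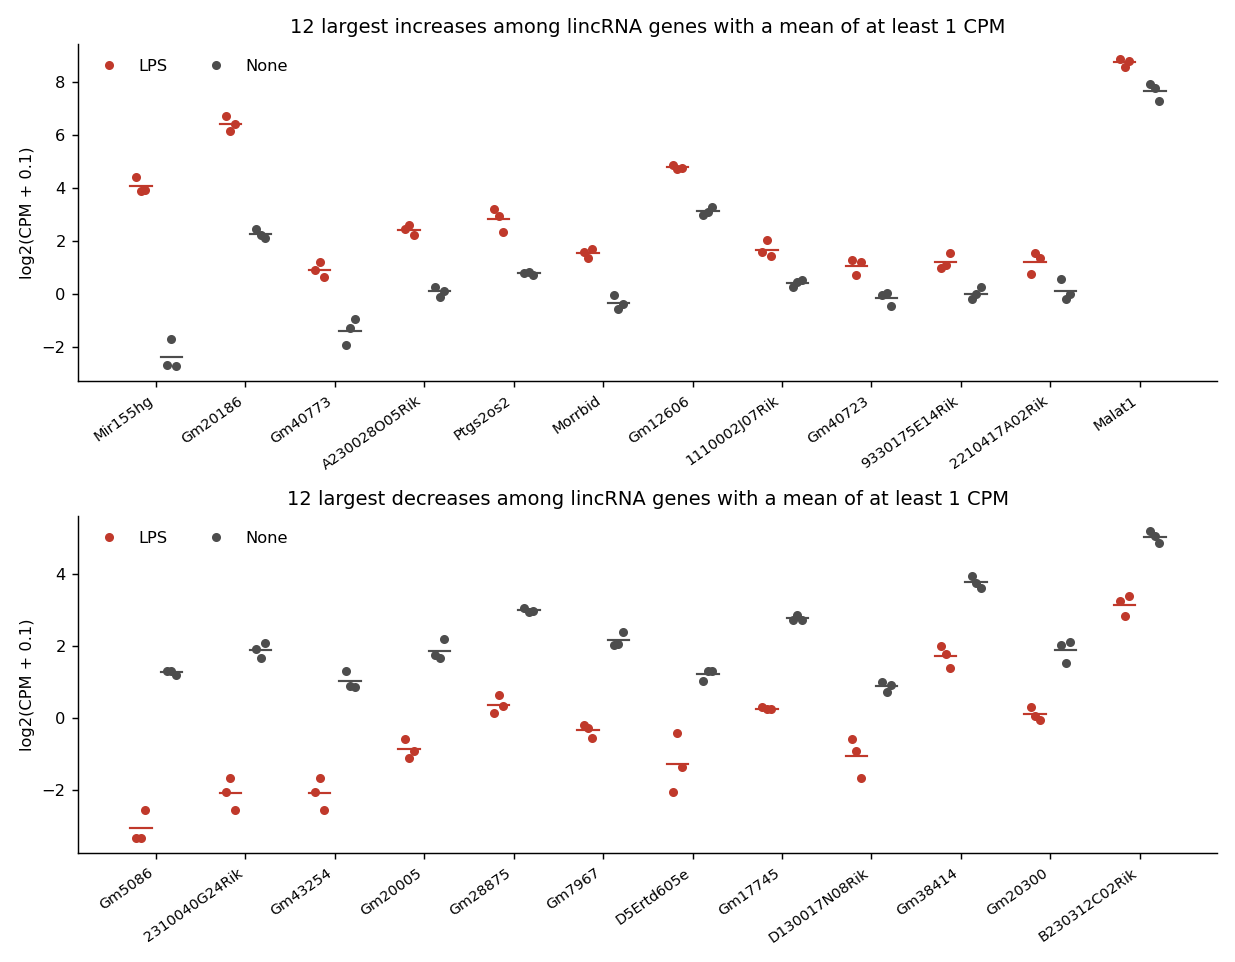
For the 12 largest increases (top) and 12 largest decreases (bottom) among called lincRNA genes with a mean of at least 1 CPM, each point is a library on a log2(CPM + 0.1) axis and each line is the mean of the plotted values, LPS in red to the left of None in grey. The 3 LPS points lie above the 3 None points for every gene of the top panel and below them for every gene of the bottom panel. The genes were picked by their changes in these same libraries, and 73.6% of all genes tested had no overlap.

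Gm5086 (chr13:97560000-97583994, plus strand) showed the largest decrease. It had 0, 0 and 1 counts in LPS libraries, against 44, 46 and 42 counts in None libraries (2.39, 2.38 and 2.17 CPM). The ratio of scaled counts, None over LPS, was 96.4, with an exact 95% interval of 17 to 3836 (edgeR adjusted p = 7.24e-07). The 1 count lay in LPS replicate 3, and without that library the fitted log2 fold change was -8.30 in place of -6.20, a value with no count in LPS that is no bound. The gene was thus near the detection limit in LPS cells and present in every None library. For 2310040G24Rik (chr6:86483376-86488227, minus strand) the counts were 2, 3 and 1 in LPS libraries and 68, 60 and 80 in None libraries, a 24.1-fold decrease (edgeR adjusted p = 2.52e-07). For Gm43254 they were 2, 3 and 1 in LPS libraries and 44, 34 and 33 in None libraries, a 12.9-fold decrease (edgeR adjusted p = 6.45e-06).

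The other 9 of the 12 largest decreases ran from 3.68-fold to 7.84-fold. Gm20005 fell 7.84-fold, with 0.455 ± 0.104 CPM in LPS and 3.62 ± 0.77 CPM in None. Gm28875 had 0.995, 1.45 and 1.15 CPM in LPS libraries, against 8.19, 7.60 and 7.81 CPM in None libraries, and fell 6.52-fold. Gm17745 (chr10:93335393-93348877, plus strand) had 1.14, 1.09 and 1.08 CPM in LPS libraries, against 6.51, 7.24 and 6.51 CPM in None libraries, and fell 6.09-fold (edgeR adjusted p = 1.17e-07). The values within each group of these genes lay close together beside the distance between groups. Gm7967 and D5Ertd605e fell 6.28-fold and 6.12-fold, D5Ertd605e by 10.1-fold without LPS replicate 2, and D130017N08Rik, Gm38414 and Gm20300 fell 4.24-fold, 4.15-fold and 3.69-fold. The most abundant of the 12 was B230312C02Rik, at 9.38, 6.97 and 10.3 CPM in LPS libraries, against 36.3, 33.3 and 28.8 CPM in None libraries, a 3.68-fold decrease (edgeR adjusted p = 1.34e-07).

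Hosts of small RNAs moved in both directions. In the table's coordinates, 14 of the 138 genes held a microRNA, snoRNA or small Cajal body RNA gene on their own strand, and 3 were higher, 6 lower and 5 not called, with a median log2 fold change of -0.47. Over all 136 lincRNA genes tested, 22.1% were higher and 47.1% lower with a median of -0.40. For all genes tested these values were 34%, 35.1% and -0.03. The hosts were counted after values were seen. Mir17hg (chr14:115042879-115046727, plus strand), the host of the miR-17-92 cluster of growth-promoting microRNAs, had 7.89, 7.84 and 5.19 CPM in LPS libraries, against 16.0, 16.96 and 14.9 CPM in None libraries. All LPS libraries lay below all None libraries, and Mir17hg fell 2.29-fold (log2 fold change -1.19 ± 0.15, SE; edgeR adjusted p = 1.55e-05). The main arms of the cluster are shown by seed, since they are what this host is known for: miR-17 and miR-20a share 1 seed, miR-19a and miR-19b another, and miR-18a and miR-92a have their own (RefSeq, GRCm38.p6, seeds in capitals).
mmu-miR-17-5p: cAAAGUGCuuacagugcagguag
mmu-miR-20a-5p: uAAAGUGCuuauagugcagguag
mmu-miR-18a-5p: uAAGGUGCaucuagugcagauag
mmu-miR-19a-3p: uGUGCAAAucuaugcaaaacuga
mmu-miR-19b-3p: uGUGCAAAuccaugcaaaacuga
mmu-miR-92a-3p: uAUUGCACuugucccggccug
The let-7 host 6720427I07Rik, whose 3 microRNAs share the seed GAGGUAG, had 2.40 ± 0.60 CPM in LPS and 3.25 ± 0.83 CPM in None and was not called (edgeR adjusted p = 0.141), except as lower with library totals alone (adjusted p = 0.0288). The host of miR-425 and miR-191, 4833445I07Rik, fell 1.93-fold (edgeR adjusted p = 0.00718), and Ftx, which holds miR-374b and miR-421, fell 1.54-fold (edgeR adjusted p = 0.00258).

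The Snhg genes of lincRNA type, named as snoRNA hosts, were called in different directions. Snhg20 held a small Cajal body RNA and a microRNA but no snoRNA gene in the coordinates used. Snhg20 had 7.25, 8.79 and 10.9 CPM in LPS libraries, against 18.1, 17.1 and 16.96 CPM in None libraries, and fell 1.94-fold without overlap (edgeR adjusted p = 4.57e-05). Snhg15 fell 1.48-fold (edgeR adjusted p = 0.00959), with 9.20 ± 2.51 CPM in LPS and 13.6 ± 0.90 CPM in None. Snhg12 was not called, at 12.4 ± 1.51 CPM in LPS and 13.3 ± 0.51 CPM in None (edgeR adjusted p = 0.446), except as lower with library totals alone and with limma on TPM (adjusted p of 0.0149 and 0.000593). Snhg6 and Snhg18 were called higher by 1.48-fold and 1.41-fold (edgeR adjusted p of 0.0214 and 0.0186). Both of these calls were lost with library totals alone (adjusted p of 0.185 and 0.213) and when single libraries were left out. Some other Snhg names that were looked for were not found among the deposited genes. The remaining Snhg genes, Gas5 and Mir22hg carry other types and are outside the rule, and Mir142hg had 2 counts in all.

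Among lincRNAs tied to p53 and growth, Trp53cor1 (lincRNA-p21; chr17:29057430-29079179, minus strand), a p53 target beside the cell cycle inhibitor gene Cdkn1a, had 3.13, 3.05 and 3.25 CPM in LPS libraries, against 5.05, 6.36 and 6.26 CPM in None libraries. It fell 1.87-fold without overlap (edgeR adjusted p = 0.000395). Oip5os1 (Cyrano), known for triggering the decay of miR-7, had 38.4, 35.3 and 30.7 CPM in LPS libraries, against 71.7, 59.9 and 58.9 CPM in None libraries, and fell 1.82-fold (edgeR adjusted p = 9.08e-06). The gene 2900097C17Rik (Norad), known in human cells as a sponge of Pumilio proteins, fell 1.32-fold, with 22.8 ± 2.63 CPM in LPS and 30.1 ± 3.38 CPM in None (edgeR adjusted p = 0.00686). Pvt1, a neighbour of Myc, had 6.96, 7.55 and 8.51 CPM in LPS libraries, against 4.83, 6.15 and 6.31 CPM in None libraries, and was called higher by 1.33-fold (edgeR adjusted p = 0.0312). That call was lost with library totals alone (adjusted p = 0.403), with limma on TPM (adjusted p = 0.236) and without LPS replicate 3 or None replicate 1 (adjusted p of 0.1 and 0.117). Epb41l4aos was not called, at 3.76 ± 1.15 CPM in LPS and 4.41 ± 0.57 CPM in None, except as lower with limma on TPM (adjusted p = 0.0401).

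Of the lincRNAs of the X inactivation centre, Ftx, an activator of Xist, fell as given above, with 4.90, 5.59 and 4.33 CPM in LPS, against 8.14, 7.34 and 7.29 CPM in None. Jpx, another activator of Xist, had 0.812 ± 0.458 CPM in LPS and 1.09 ± 0.34 CPM in None and was not called (edgeR adjusted p = 0.389). Xist had 3 counts in all. The imprinted lincRNAs Meg3 and Mirg were at 0 and H19 had 4 counts in all. In total 57 names were listed from common knowledge of lincRNAs, of which 25 are of lincRNA type in the table and 19 met the rule. Of these 19, 7 were higher, 7 lower and 5 not called, against 34% higher and 35.1% lower of all genes tested and 22.1% and 47.1% of the lincRNA genes tested.

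The nearest protein-coding gene of each lincRNA gene was taken by the gap between their intervals. The median gap was 7573 bases. Despite their type, 14 lincRNA genes overlapped a protein-coding gene, 6 on the same strand and 8 on the opposite one. A further 25 lay within 1000 bases of their neighbour, 20 of them in divergent orientation, which places the start sites of both genes side by side. The sources used here do not say whether the libraries kept the strand, and reads of overlapping genes cannot be told apart. Of the 13 overlapping genes tested, 2 were higher and 5 lower, a count to be read against the 22.1% and 47.1% of all lincRNA genes tested and the 34% and 35.1% of all genes.

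Pairs of a lincRNA gene and its neighbour were called in the same direction at a share close to that of coding pairs, a comparison given without a test. Both genes were tested in 103 of 138 pairs. Both were called in the same direction in 30 pairs, or 29.1%, and in opposite directions in 21, while the lincRNA gene alone was called in 25, the neighbour alone in 19 and neither in 8. Among 7644 protein-coding genes and their own nearest coding gene, 28.1% were called in the same direction and 21% in opposite directions. Across the 103 pairs, Pearson's r of the log2 fold changes was 0.33 and Spearman's rho 0.25, against 0.23 and 0.14 across the coding pairs; pairs share libraries and are not independent replicates. Of the 30 pairs moving together, 11 were both higher and 19 both lower. Of the 21 moving apart, the lincRNA gene was the lower one in 17. Both splits are to be read against the 22.1% higher and 47.1% lower of all lincRNA genes tested. Of all genes tested, 34% were higher and 35.1% lower.

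**Figure D5:**
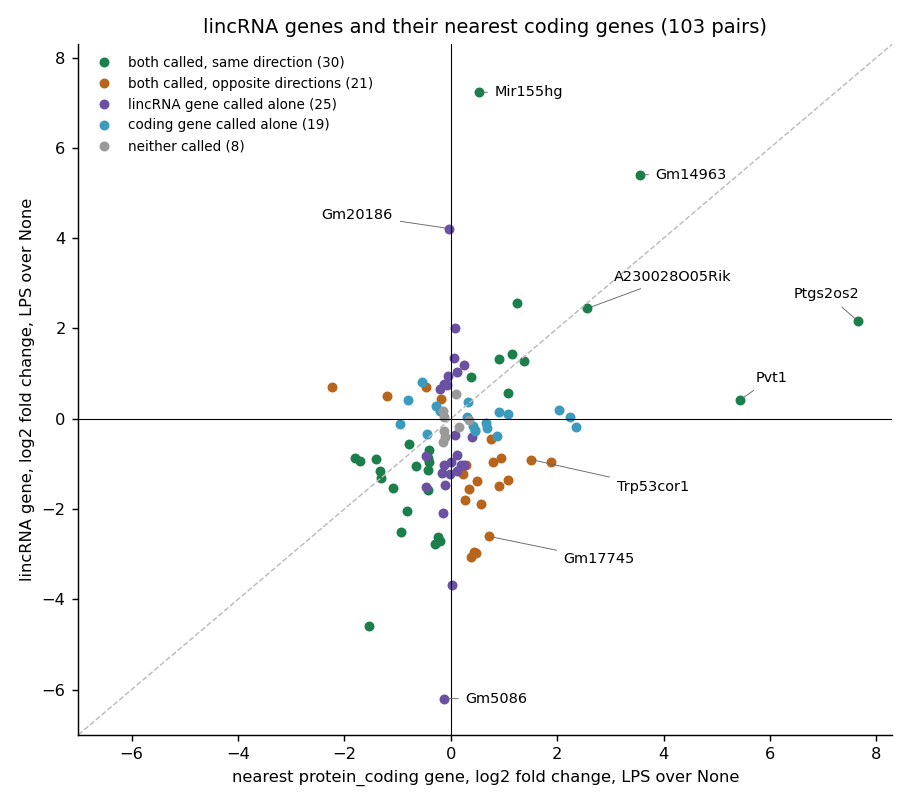
Each point is 1 of 103 pairs, with the log2 fold change of the nearest protein-coding gene on the x axis and that of the lincRNA gene on the y axis, both LPS over None, coloured by which genes were called; the dashed line marks equal change. A230028O05Rik lies close to the line with Lpp (2.44 and 2.57), while Ptgs2os2, Pvt1, Gm20186, Mir155hg and Gm5086 lie far from it.

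The pairs were also counted by distance, with no test of the differences. Of the overlapping pairs with both genes tested, 1 of 10 was called in the same direction (10%, against 25.1% of coding pairs that overlap) and 1 in opposite directions. Within 1000 bases but without overlap, 8 of 24 moved in the same direction (33.3%, against 26.2% of coding pairs at that distance) and 5 in opposite directions. From there to 10000 bases the counts were 12 and 8 of 30, with 40% in the same direction against 30.5% of coding pairs. From there to 100000 bases they were 7 and 5 of 30 (23.3% against 28.7%), and beyond 100000 bases 2 and 2 of 9 (22.2% against 30.5%). Of the pairs with both genes called, 60% moved in the same direction at gaps up to 10000 bases and 56.2% beyond, against 57.8% and 55.5% among coding pairs. Of the 20 divergent pairs within 1000 bases, 7 moved in the same direction (35%) and 4 in opposite directions. Coding pairs were not counted by orientation, and 26.2% of those within 1000 bases in any orientation moved in the same direction.

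The closest pairs called in the same direction had gaps of at most 277 bases. Gm14963, whose change rests on 2 counts in None, starts 120 bases from Ehd1, an endocytic recycling gene that had 622 ± 27.1 CPM in LPS and 53.1 ± 2.10 CPM in None and rose 11.7-fold. The lincRNA gene 5033430I15Rik lies 277 bases from Atxn1, a chromatin-bound repressor, and both rose (log2 fold changes of 1.44 and 1.16). Gm7160 lies 124 bases from Zcchc2, and both were called higher (0.92 and 0.39), but the call of Gm7160 was lost in 6 alternatives. On the lower side stood 1700086O06Rik, 90 bases from Dele1, a relay of mitochondrial stress (-1.58 and -0.43). Another, 9330175E14Rik, overlaps on the opposite strand Nlrc5, the activator of MHC class I genes, and the 2 genes had log2 fold changes of 1.29 and 1.37.

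A pair close together did not always move together. Gm20186 lies 434 bases from Lsm8, a subunit of the U6 snRNA ring, which had 30.9 ± 3.47 CPM in LPS and 31.5 ± 3.25 CPM in None and was not called (edgeR adjusted p = 0.834). Gm43254 lies 114 bases from the mitochondrial pyrophosphatase gene Ppa2, which was not called either (log2 fold change 0.02). Snhg18 lies 151 bases from the axon guidance gene Sema5a, which had 26.1 ± 2.42 CPM in LPS and 60.2 ± 2.73 CPM in None and fell by 1.21 on the log2 scale.

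Whether a lincRNA gene changed differently from its neighbour was tested on the difference of log2 CPM between the 2 genes, with limma across all 8355 such pairs. Of the 103 lincRNA pairs, 74 were called, or 71.8%, against 68.3% of all pairs. The lincRNA gene changed toward lower values than its neighbour in 53 pairs, 51.5%, against 34.1% of all pairs. The median difference was -0.54 for the lincRNA pairs and 0.00 for all pairs.

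In the pairs with the largest differences, one gene changed far more than the other. Mir155hg exceeded Mrpl39, a mitochondrial ribosomal protein gene at 51.3 ± 0.25 CPM in LPS and 35.7 ± 2.06 CPM in None, by 5.76 ± 0.30 (SE, limma adjusted p = 1.28e-07). Ptgs2os2 rose far less than Ptgs2, which had 5812 ± 1834 CPM in LPS and 28.9 ± 4.07 CPM in None and rose 201-fold, a difference of -5.57 ± 0.23 (limma adjusted p = 3.04e-08). Pvt1 likewise differed by -4.87 ± 0.22 from Myc, the growth regulator, which had 38.1 ± 6.12 CPM in LPS and 0.872 ± 0.246 CPM in None (limma adjusted p = 5.10e-08). In both of these pairs the coding gene was the more strongly changed one, and in that of Mir155hg the lincRNA gene was. Gm20186 against Lsm8 differed by 4.19 ± 0.13, Gm5086 against Rps18-ps6 by -3.99 ± 0.32 and Gm17745 against the ETS factor gene Elk3 by -3.21 ± 0.19 (limma adjusted p of 4.17e-09, 2.39e-06 and 3.00e-07). With a prior count of 0.5 in place of 2, the differences of Mir155hg and Gm5086 became 6.62 and -5.57 (limma adjusted p of 7.54e-07 and 1.14e-05), each gene having few counts in a group. Rps18-ps6 is typed protein_coding in the table and pseudogene in RefSeq.

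Other known pairs gave smaller differences. Morrbid differed from Bcl2l11, which had 47.0 ± 1.82 CPM in LPS and 44.6 ± 2.76 CPM in None, by 1.77 ± 0.25 (limma adjusted p = 0.000113). Trp53cor1 and Cdkn1a were called in opposite directions, Cdkn1a at 911 ± 87.4 CPM in LPS and 319 ± 19.4 CPM in None, with a difference of -2.39 ± 0.17 (limma adjusted p = 1.04e-06). Oip5os1 fell less than the centromere gene Oip5, by 0.97 ± 0.26 (limma adjusted p = 0.00729). A230028O05Rik and Lpp, a focal adhesion gene at 71.4 ± 13.8 CPM in LPS and 12.04 ± 0.41 CPM in None, had no called difference (-0.23 ± 0.24, limma adjusted p = 0.411). On simulated counts with few changed genes the test recovered 16% of differences of 0.5, a rate that need not hold here. Gm14963 and Ehd1 had none either (0.08 ± 0.31; limma adjusted p = 0.830), but that value rests on 2 counts in None and became 1.39 (adjusted p = 0.0323) with a prior count of 0.5 in place of 2.

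Promoter windows, 250 bases before to 50 after the RefSeq start, were at hand for 84 of the 138 lincRNA genes, 22 of them called higher and 37 lower. The letters GGANTTTCC, a form of the NF-kappaB motif, were found on either strand in 0 of the 84 windows and in 1.25% of all 32851 windows of the same length. GAAANNGAA, a core of the interferon response element, was found in 4 of the 22 higher and 6 of the 37 lower genes (18.2% and 16.2%), against 13 of all 84 lincRNA genes (15.5%) and 8.56% of all windows. TGANTCA, the AP-1 motif, was found in 4 of the 22 and 5 of the 37 (18.2% and 13.5%), against 13 of the 84 (15.5%) and 7.81% of all windows. No test was made of these shares.

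The windows of 7 genes with large changes are given 5′ to 3′ on the strand of the gene (RefSeq, GRCm38.p6), with any of the 3 motifs in capitals. The start site equals that of the deposited table for Ptgs2os2, A230028O05Rik, Gm5086 and 2310040G24Rik, differs by 27 bases for Gm14963 and by 76 bases for Morrbid, and for Mir155hg lies 9856 bases inside the table's interval.
Mir155hg, chr16:84712773-84713072, plus strand: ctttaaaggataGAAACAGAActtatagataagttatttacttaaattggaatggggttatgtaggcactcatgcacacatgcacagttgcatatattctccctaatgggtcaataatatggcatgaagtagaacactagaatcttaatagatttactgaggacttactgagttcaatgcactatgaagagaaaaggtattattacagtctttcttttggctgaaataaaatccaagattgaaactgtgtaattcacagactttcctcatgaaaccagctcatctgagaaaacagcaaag
Gm14963, chr19:6276529-6276828, minus strand: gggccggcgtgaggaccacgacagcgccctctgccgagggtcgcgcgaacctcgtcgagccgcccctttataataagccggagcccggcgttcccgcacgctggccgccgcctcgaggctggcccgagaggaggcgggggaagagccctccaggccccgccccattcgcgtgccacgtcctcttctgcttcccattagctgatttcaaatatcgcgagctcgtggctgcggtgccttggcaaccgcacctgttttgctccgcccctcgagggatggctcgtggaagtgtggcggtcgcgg
A230028O05Rik, chr16:25059389-25059688, plus strand: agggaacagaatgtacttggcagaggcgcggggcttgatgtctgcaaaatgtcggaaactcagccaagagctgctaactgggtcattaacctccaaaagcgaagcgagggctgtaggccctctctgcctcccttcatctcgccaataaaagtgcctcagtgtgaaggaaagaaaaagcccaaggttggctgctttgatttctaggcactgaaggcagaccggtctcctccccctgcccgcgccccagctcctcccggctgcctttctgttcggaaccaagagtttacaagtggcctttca
Ptgs2os2, chr1:150164899-150165198, minus strand: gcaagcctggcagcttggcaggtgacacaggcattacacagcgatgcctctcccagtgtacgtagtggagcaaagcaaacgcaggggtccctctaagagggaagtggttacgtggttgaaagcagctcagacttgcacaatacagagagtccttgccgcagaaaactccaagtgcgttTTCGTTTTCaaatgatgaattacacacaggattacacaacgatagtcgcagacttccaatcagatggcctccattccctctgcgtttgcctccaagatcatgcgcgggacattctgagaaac
Morrbid, chr2:128429302-128429601, minus strand: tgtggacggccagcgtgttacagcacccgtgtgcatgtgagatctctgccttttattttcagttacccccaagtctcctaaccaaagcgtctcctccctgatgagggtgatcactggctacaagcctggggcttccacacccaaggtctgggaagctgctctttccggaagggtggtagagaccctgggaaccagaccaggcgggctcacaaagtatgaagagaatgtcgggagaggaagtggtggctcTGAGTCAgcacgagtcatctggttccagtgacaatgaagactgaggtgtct
Gm5086, chr13:97559750-97560049, plus strand: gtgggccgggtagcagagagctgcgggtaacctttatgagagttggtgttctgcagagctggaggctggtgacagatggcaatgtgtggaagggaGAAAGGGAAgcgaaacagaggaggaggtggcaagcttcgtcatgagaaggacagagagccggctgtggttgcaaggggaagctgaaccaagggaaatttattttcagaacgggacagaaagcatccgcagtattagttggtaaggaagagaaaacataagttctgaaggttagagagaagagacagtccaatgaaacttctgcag
2310040G24Rik, chr6:86488178-86488477, minus strand: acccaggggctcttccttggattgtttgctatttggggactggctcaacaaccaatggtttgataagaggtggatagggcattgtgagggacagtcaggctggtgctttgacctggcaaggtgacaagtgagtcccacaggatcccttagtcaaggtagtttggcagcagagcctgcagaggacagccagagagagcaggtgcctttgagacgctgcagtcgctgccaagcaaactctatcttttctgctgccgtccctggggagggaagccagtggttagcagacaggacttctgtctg
Mir155hg, Ptgs2os2 and Gm5086 each hold the interferon core, Morrbid holds the AP-1 letters, and Gm14963, A230028O05Rik and 2310040G24Rik hold none of the 3. No window holds more than 1 match. A match of letters is a description and not a binding site.

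The rule's limit of 60 counts fell among genes with similar values. Just inside it were Gm43848 with a sum of 61 (5 in LPS and 56 in None), 2610037D02Rik with 62 (35 in LPS and 27 in None) and 1110006O24Rik with 62 (28 in LPS and 34 in None). Just outside were 2810429I04Rik with 59 (10 in LPS and 49 in None), Gm26576 with 58 (42 in LPS and 16 in None) and A330035P11Rik with 57 (16 in LPS and 41 in None). Gm17484 and Gm40289 met the rule but not the filter of the test. All 138 identifiers were found in GENCODE M21, where 136 are still lincRNA and 101 have the same interval.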

How the data were processed

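RNA of RAW-Blue cells was sequenced as paired reads and filtered with SOAPnuke, per the labels' protocols; STAR 2.7.10a, RSEM 1.3.1 and GRCm38 are named per the submitters' processing notes. The deposited expected counts, per the file headers, are estimates that divide reads among genes sharing sequence. The deposited TPM values are the authors' length-scaled levels. Strandedness and RNA selection are not given in the sources used here. Of the library columns in each table, 6 matched None or LPS labels; the other 12 were not used.

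Counts were rounded, filtered (filterByExpr, count minimum 10), scaled by TMM and tested with edgeR 4.0.16 (glmQLFit, glmQLFTest, two-sided, group as the only term) in R 4.3.3, with Benjamini-Hochberg adjustment over 11916 genes; the biological coefficient of variation was 8.32%. Differences between a gene and its nearest protein_coding gene were tested with limma 3.58.1 on log2 CPM (prior count 2). SDs are over 3 libraries. An SE beside an edgeR log2 fold change is the size of that change divided by the square root of the F statistic. Where a group holds few counts, it can be smaller than the counting error. On simulated counts for LPS against None (11770 genes in the simulation), edgeR recovered 64%, 92%, 100% and 100% of genes changed by 0.5, 1, 2 and 4 on the log2 scale, with 4.81% of its calls false; the limma pair test recovered 16%, 82%, 100% and 100%, with 6.88% of calls false, above the 5% set. The simulation changed few genes, gave all genes the same biological variation and paired them with unchanged genes. In the data 69.1% of genes and 68.3% of pairs were called, so the simulated rates need not hold for them. Members, lists and tests were chosen with earlier results of these data known. Named genes are the 12 largest called increases and decreases with at least 1 CPM, members of the lists, the 6 highest by TPM in either group, 6 pairs with the largest called difference, the 6 nearest pairs called in the same direction, and those at the limit of the rule, each with its neighbour; 1 of these pairs and 1 marker are not reported here. Alternatives were other scalings and filters, DESeq2 1.42.0, limma on log2(TPM + 0.1), the replicate block, other sum limits and neighbour rules, and leaving out each library.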

Additional observations from a re-analysis of the deposited data

How the results depend on the processing

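Depth limits the low genes: intervals and ratios cover counting error only, and a gene with few counts in a group can show a change of several fold or none. The counts called were within 1.5 times under the other settings run except as follows. With library totals alone 17 lincRNA genes were higher and 2679 of all genes were higher, and the median log2 fold change of the lincRNA genes was -0.66; with limma on log2(TPM + 0.1) it was -0.58. With a sum of at least 600, 9 were higher and 20 lower of 41 genes; among pairs over 10 kb apart 9 moved in the same and 7 in opposite directions, both being smaller sets. Leaving out each library in turn gave medians of -0.46 to -0.33, 23 to 28 higher, 60 to 63 lower, 24 to 29 pairs in the same and 15 to 20 in opposite directions, and 65 to 72 pair differences. Replicate numbers do not pair the samples (correlations of deviations of 0.08, -0.02 and 0.01); with the replicate block 30 lincRNA genes were higher and 64 lower, and 8362 of all genes were called. Of 623 fold changes of named genes under alternatives, 583 kept direction and call, 25 lost it, 8 gained it and 7 took the opposite sign, and of 333 differences from neighbours these were 302, 18, 3 and 10. The opposite signs, none of them of a gene called in the values reported, were Neat1 -0.10 (library totals), Rps18-ps4 -0.19 (TPM) and -0.23 (library totals), and, with a library left out in turn, values of -0.41 to 0.0031 for Epb41l4aos, -0.15 to 0.046 for Gm10076 and -0.085 to 0.16 for Rps18-ps4. Differences from neighbours with the opposite sign were -0.70 for Gm14963 (TPM) and, with a library left out, ranges of -0.083 to 0.22 for Gm14963, -0.99 to 0.99 for Gm42047, -0.16 to 0.34 for 5033430I15Rik and -0.082 to 0.46 for Rps18-ps4. For all of these the cause was not tested.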

Other observations

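Gm43549, which met the rule and was not called (edgeR adjusted p = 0.627), had 10.6, 9.53 and 12.7 estimated counts in LPS libraries, against 0, 39.8 and 22.2 in None libraries, so that None replicate 1 stood apart from the other None libraries; without it the gene was called lower (log2 fold change -0.97; adjusted p = 0.0353). G730013B05Rik, known as linc-Cblb in RefSeq's synonyms, was called higher at one of the higher levels among lincRNA genes, with 68.8 CPM in LPS and 54.7 CPM in None (log2 fold change 0.33 ± 0.09, SE; edgeR adjusted p = 0.00486), a call lost with library totals alone and with limma on TPM (adjusted p of 0.387 to 0.494). Lockd, a lincRNA gene 3579 bases from the cell cycle inhibitor gene Cdkn1b, was lower together with it (log2 fold changes of -0.86 and -0.42; edgeR adjusted p of 0.0300 and 0.000465), but its libraries overlapped between the groups and its call was lost without LPS replicate 1 or 2 or None replicate 1 or 2 (adjusted p of 0.0696 to 0.121). D730003I15Rik, 6435 bases from the stress-response factor gene Atf3 in divergent orientation, was higher together with it (0.56 and 1.08; edgeR adjusted p of 0.0188 and 4.29e-06), with its own call lost in 6 alternatives, among them DESeq2 and both settings named for G730013B05Rik (adjusted p of 0.0502 to 0.179). These 4 genes were chosen after their values were seen.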
